A study of Mus musculus with 12 samples.

Results

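The genes described here are 32 named genes of double-strand break and replication stress repair, each taken where the gene name in the scanner files equalled the listed name. All 32 had a probe among the 34844 gene names of the array, and 31 of them passed the filter on dim probes, beside 26505 genes tested in all. They were measured in liver and liver tumor RNA of male mice of strain 129/SV/B6 on 12 single-colour Agilent arrays, 3 for each of 4 groups. Mx+tumor is hepatocellular carcinoma (HCC) of Mxcre+ mice in which survivin (Birc5) was deleted, and Mx-tumor is HCC of Mxcre- mice with wild-type survivin. Mx+liver is survivin-deleted non-cancerous liver of Mxcre+ mice, and Mx-liver is the wild-type non-cancerous liver of Mxcre- mice. Every mouse, controls included, had been given the carcinogen diethylnitrosamine (DEN) at 50 mg/kg at the age of 2 weeks and poly(IC) 8 months after it. The tissue was taken 1 week after poly(IC) and 2 months after irradiation and a bone marrow transplant, so every group had met an alkylating agent and radiation. The Mx promoter that drives Cre answers to the interferon that poly(IC) induces, in hepatocytes and also in blood cells and other liver cells. The labels do not give the genotype of the transplanted marrow, the deleted part of Birc5, whether the 3 arrays of a group are 3 animals, or whether tumor and liver of 1 genotype and number share an animal. The p-values therefore measure the spread between these arrays, which may in part be technical.

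A double-strand break is sensed by the MRN complex of Mre11, Rad50 and Nbs1 (encoded by Nbn), which recruits and activates the kinase Atm. Atm phosphorylates the histone variant H2AX and the kinase Chek2. The ends are then either joined directly, by Ku (Xrcc5 and Xrcc6), DNA-PKcs (Prkdc), Xrcc4 and Lig4, or resected by nucleases such as Exo1 and repaired from the sister chromatid by homologous recombination, which uses Brca1, Bard1, Palb2, Brca2, Xrcc2 and Xrcc3. Stalled replication forks signal through Atr and Chek1, and the Fanconi anaemia proteins act at forks blocked by crosslinks. Most hepatocytes of an adult liver do not divide, and they join ends mainly directly, whereas many recombination genes are transcribed in S phase under E2F factors. The values below are log2 processed signals minus the 75th percentile of their array, so a level of 0 is the signal that 75% of probes lay below, and levels of different genes are not compared.

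The probe sequences of 3 genes are printed because the differences by genotype below rest on them, with positions on the mm9 build of the array files. The Nbn probe lies at chr4:15906456-15906515 and the Chek2 probe at chr5:111294547-111294606. The Xrcc5 probe spans chr1:72430014-72430320, which is 307 bases for a 60-base probe, so it crosses at least 1 intron. All 3 are on the plus strand.
Nbn probe: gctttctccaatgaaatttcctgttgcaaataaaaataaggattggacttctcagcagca
Chek2 probe: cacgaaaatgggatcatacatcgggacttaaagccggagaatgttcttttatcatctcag
Xrcc5 probe: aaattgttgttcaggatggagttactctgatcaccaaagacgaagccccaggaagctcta

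Promoter sequences of RefSeq (GRCm38.p6, 250 bases before to 50 after a gene's start) were found for 25 of the 32 genes, with 30 promoters in all. The E2F words TTTCCCGC, TTTGGCGC, TTTGCCGC and TTTCGCGC, on either strand, stood in 7 of the 30 promoters (23.3%), against 2.26% of all 32851 promoters in the table. The 7 belonged to Bard1, Brca2, Chek2, Lig1, Msh6, Pold1 and Xrcc6. The CHR words TTTGAA and TTCGAA, which mark many late cell cycle genes, stood in 2 of the 30 (6.67%), against 19.2% of all promoters, and CCAAT in 14 of the 30 (46.7%), against 37.4%. A base may belong to more than 1 word, and a match only says that these letters are there. For the 4 genes whose match lies before the start site, 60 bases around it are printed in the direction of the gene, with the E2F word in capitals. They are chr1:71103148-71103207 on the minus strand, chr5:150522427-150522486 on the plus strand, chr5:110839805-110839864 on the plus strand and chr15:82016297-82016356 on the plus strand for the 4 genes in the order below. The word begins 209, 168, 152 and 46 bases before the start site in that order. In Bard1 it reads in the direction of the gene, and in the other 3 it is the reverse complement, GCGGGAAA.
Bard1: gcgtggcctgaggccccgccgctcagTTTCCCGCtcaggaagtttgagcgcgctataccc
Brca2: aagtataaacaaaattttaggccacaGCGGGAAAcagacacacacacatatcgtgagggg
Chek2: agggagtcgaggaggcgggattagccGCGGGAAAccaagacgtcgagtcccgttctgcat
Xrcc6: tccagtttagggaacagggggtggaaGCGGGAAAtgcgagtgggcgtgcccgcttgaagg

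Each group had 1 array on slide 1 (replicate 1) and 2 arrays on slide 2. The 75th percentile of the signal was 1131 to 1766 on slide 1 and 3343 to 3906 on slide 2, and 49.0% of spots were well above background in Mx-liver replicate 1, against 69.2% to 83.4% on the other 11 arrays. No spot was saturated. The deposited value table gives the columns of Mx+liver replicate 1 and Mx-tumor replicate 1 the values of each other's scanner file, so which RNA these 2 arrays hold is unsure, and results are also given with them exchanged, without them and on slide 2 alone. The slide was a fixed block in the limma fit. Birc5, the deleted gene, read 0.06, 0.17 and -0.08 in Mx+tumor, against 0.80, 0.82 and 1.76 in Mx-tumor, and 2.42, -0.10 and -1.07 in Mx+liver, against 2.85, 0.51 and 0.76 in Mx-liver. With this probe its level was lower in each Mx+ array than in the Mx- arrays of the same tissue and slide, but the groups overlapped in liver. The log2 difference was -1.08 ± 0.69 (SE) in tumor and -0.96 ± 0.69 in liver (two-sided exact permutation p = 0.1 in tumor, the smallest possible for 3 against 3, and p = 0.5 in liver). This permutation ignored the slide, so the step between slides, large for Birc5 in liver, counts as spread in it. The other 2 Birc5 probes gave -1.09 and -1.79 in tumor and -0.98 and -1.24 in liver, and on 1 of them Mx+tumor replicate 1 read -0.24, above Mx-tumor replicate 1 at -0.57. The 10 hepatocyte markers were well above background on every array, and their mean level was 4.87 to 5.26 in Mx+tumor, against 5.26 to 5.33 in Mx-tumor, and 5.0 to 5.12 in Mx+liver, against 5.34 to 5.42 in Mx-liver.

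Most of the repair genes had a lower mean level in survivin-deleted than in wild-type tissue, with Nbn, Xrcc4, Xrcc2 and Xrcc5 in front, but no gene of the array passed the adjusted threshold of 0.05 in limma with all 12 arrays. In such bulk RNA, fewer cells of a type and less RNA per cell cannot be told apart. In tumor 23 of the 31 repair genes had a lower mean in Mx+tumor than in Mx-tumor, with a median log2 difference of -0.20 against -0.02 over all genes. In liver 24 of 31 were lower in Mx+liver than in Mx-liver, with a median of -0.20 against 0.05 over all genes. An unadjusted p below 0.05 was reached by 3 repair genes in tumor, all lower (Nbn, Xrcc4 and Xrcc2), where 4.44% of all genes were lower and 3.44% higher at that level. It was reached by 3 in liver, all lower (Nbn, Xrcc5 and Xrcc4), where 3.46% of all genes were lower and 8.37% higher. In neither tissue did a repair gene reach it in the other direction. The 3 arrays of a group stood apart without overlap for Xrcc4 in tumor, where 2.67% of all genes were so separated and lower, and for Nbn, Xrcc5 and Xrcc2 in liver, where the share was 3.21%. No repair gene was separated upwards, against 2.74% of genes in tumor and 6.28% in liver. With the 2 unsure arrays exchanged, 4 repair genes were lower at an unadjusted p below 0.05 in tumor (5.32% of all genes) and 8 in liver (3.9%). Without these 2 arrays the counts were 5 (5.8% of all genes) and 8 (4%), and on slide 2 alone 6 (8.85%) and 8 (6.08%). With normexp background they fell to 2 (5.07%) and 2 (3.38%), and without the slide block to 1 (0.698%) and 2 (0.596%). Quantile normalization gave counts of 3 (4.57%) and 7 (3.47%). With each array left out in turn they were 2 to 5 in tumor, where 2.31% to 5.69% of all genes were lower, and 2 to 7 in liver, where 2.04% to 4.19% were. The highest counts came without Mx-tumor replicate 1 (5.24%) or Mx+tumor replicate 3 (5.69%) in tumor and without Mx+liver replicate 1 (4.06%) in liver. The median in tumor was -0.03 without Mx+tumor replicate 1, and that in liver -0.09 without Mx-liver replicate 1. The comparisons of the 4 groups share arrays.

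**Figure D1:**
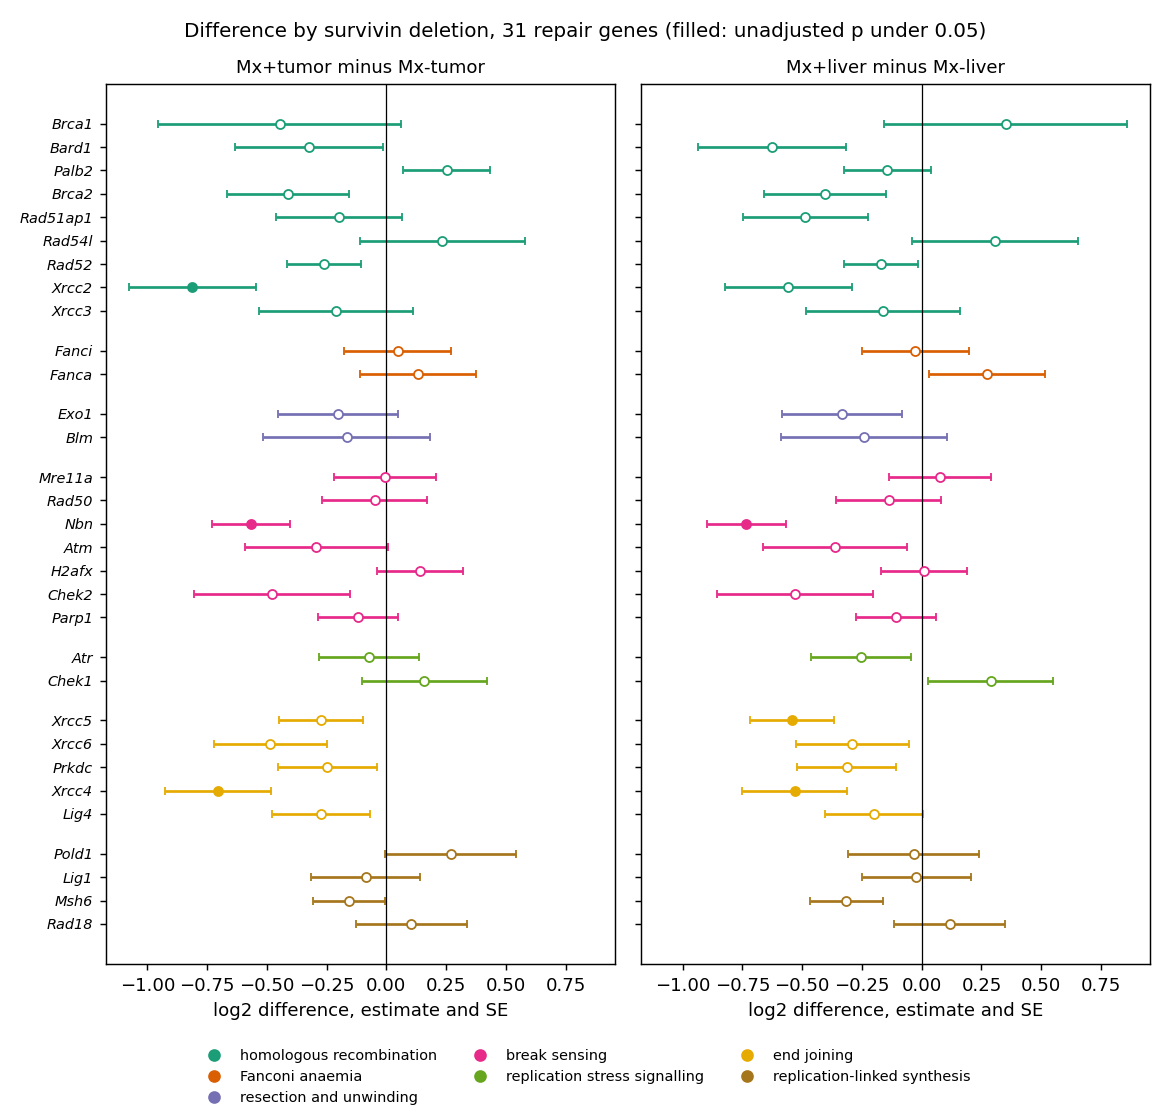
Log2 difference between Mx+ and Mx- arrays (x axis) for 31 repair genes grouped by role, in tumor (left) and liver (right), with the standard error from limma with slide as a block. Filled points have an unadjusted p below 0.05: Nbn, Xrcc4 and Xrcc2 in tumor and Nbn, Xrcc5 and Xrcc4 in liver, all to the left of 0, while the end joining genes lie left of 0 in both panels.

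Mx+ was also set against Mx- over both tissues in the same fit, a comparison added after the values were seen. Of the 31 repair genes 6 had an unadjusted p below 0.05, all lower in Mx+ (Nbn, Xrcc4, Xrcc2, Xrcc5, Xrcc6 and Brca2), against 7.29% of all genes lower and 7.74% higher, and none passed the adjusted threshold. On slide 2 alone, with 2 arrays a group, 10 of 31 were lower at an unadjusted p below 0.05 and 0 higher, against 11.4% and 13% of all genes. There Nbn (adjusted p = 0.0439) and Xrcc4 (adjusted p = 0.0484) passed the limma test, among 435 genes or 1.64% of those tested. With the tissue as an additive term on slide 2, which was also added after the values were seen, 891 genes (3.36%) passed, among them Nbn, Xrcc4, Xrcc5 and Chek2, with adjusted p-values of 0.0271, 0.0294, 0.0327 and 0.0362. With tumor and liver of 1 genotype and number averaged into 1 unit, in case they came from 1 animal, no gene passed, and the adjusted p of Nbn was 0.39 over all arrays and 0.212 on slide 2. Without the 2 arrays of unsure identity the smallest adjusted p of a repair gene was 0.0699, for Nbn.

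The direction of the differences was then compared between slides. Averaged over tissues, 16 of the 31 repair genes (51.6%) were lower in Mx+ on both slides, 3 (9.68%) were higher on both and 12 went opposite ways. Over all genes 23.5% were lower on both and 29.4% higher on both. Slide 1 holds both unsure arrays, and with them exchanged 19 (61.3%) were lower on both and 2 (6.45%) higher on both, against 23.8% and 29.1% of all genes. The slide 1 difference was then 0.14 for Atm, -0.37 for Chek2, -0.04 for Brca1, -0.15 for Chek1 and -0.31 for Rad51ap1, and the slide 1 values below are with the arrays as recorded unless stated. The exchange moves both arrays to the other genotype and the other tissue. The exchanged slide 1 genotype difference is therefore the same number as the slide 1 tissue difference with the arrays as recorded. On slide 2 all 4 Mx+ arrays lay below all 4 Mx- arrays for Atm, Chek2, Msh6, Nbn, Xrcc2, Xrcc4 and Xrcc5, 7 of 31, where 8.15% of all genes were so separated and lower. No repair gene was separated upwards there, against 8.01% of all genes. Over all 12 arrays no repair gene was separated by genotype, against 0.332% of genes lower and 0.183% higher.

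**Figure D2:**
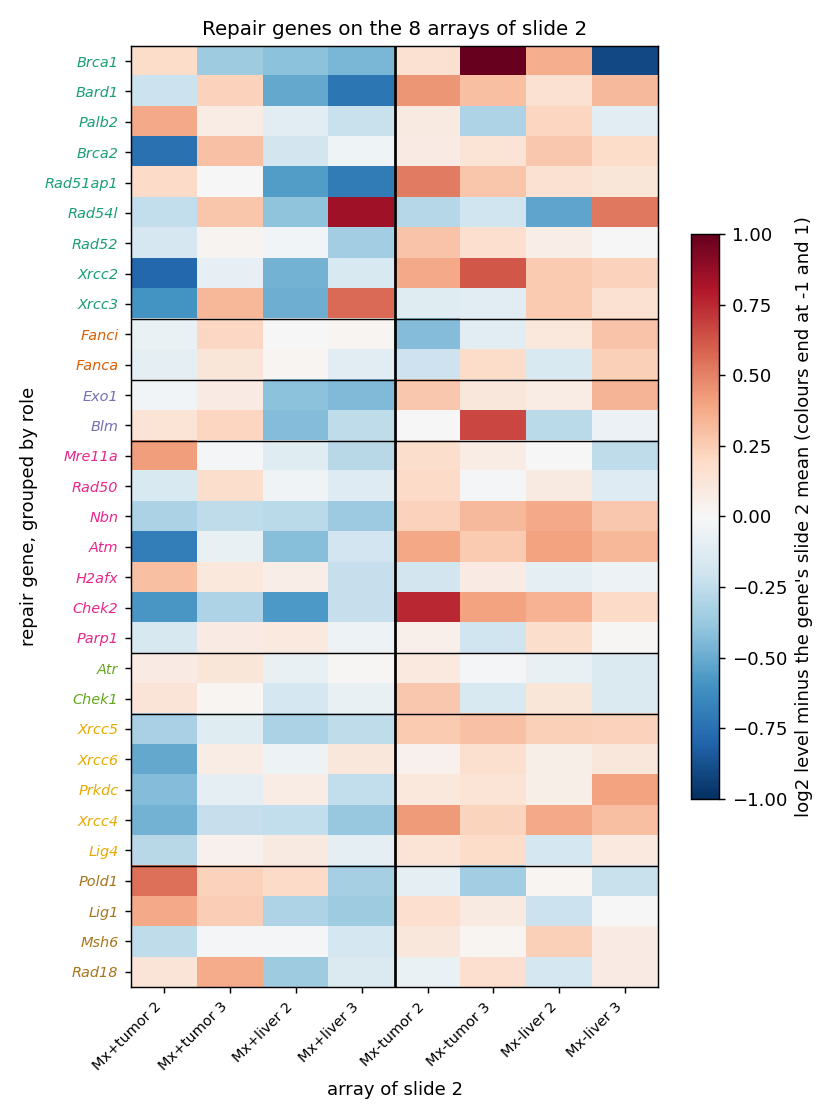
Log2 level of 31 repair genes (rows, by role) on the 8 arrays of slide 2 (columns), minus each gene's mean over them. Blue is lower and red higher, and Nbn, Chek2, Xrcc5 and Xrcc4 are blue on all 4 Mx+ arrays (left of the line) and red on all 4 Mx- arrays.

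Of the 7 break sensing genes 6 had a lower mean in Mx+tumor and 5 in Mx+liver, with median differences of -0.12 and -0.14. Such counts by role, here and below, go by sign alone. They include very small differences, as for Mre11a in tumor, with a mean of -0.86 in both groups. Nbn, the subunit that brings Atm to the MRN complex, read -0.75, -0.19 and -0.13 in Mx+tumor, against -0.18, 0.36 and 0.45 in Mx-tumor, and -0.52, -0.14 and -0.23 in Mx+liver, against 0.39, 0.51 and 0.40 in Mx-liver. The 3 Mx+liver arrays were all below the 3 Mx-liver arrays, and in tumor only Mx-tumor replicate 1, an array of unsure identity, fell within the Mx+tumor range. The log2 difference was -0.57 ± 0.16 (SE) in tumor (unadjusted p = 0.00663, adjusted p = 0.576, limma) and -0.73 ± 0.16 in liver (unadjusted p = 0.00131, adjusted p = 0.416). Over both tissues it was -0.65 ± 0.12, or 1.57-fold lower, with -0.74 on slide 1 and -0.60 on slide 2. With the 2 unsure arrays exchanged it was -0.53 ± 0.15.

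With the probes used, the other MRN subunits had smaller differences than Nbn. For the nuclease Mre11a the difference over both tissues was 0.04, with a 95% interval of -0.30 to 0.37, and for the ATPase Rad50 it was -0.09, with an interval of -0.44 to 0.25. On slide 2 they were 0.00 (-0.33 to 0.33) and -0.07 (-0.37 to 0.23), against -0.60 (-0.81 to -0.40) for Nbn. The intervals of Mre11a and of the Rad50 probe used do not reach the interval of Nbn on slide 2. With all 12 arrays the interval of that Rad50 probe does reach the interval of Nbn. The difference between genes was not tested. A second Rad50 probe, well above background on all 12 arrays, gave a larger difference, -0.35 in tumor, -0.23 in liver and -0.29 over both.

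With the probe used, the kinase Atm, activated by MRN, had opposite orders on the 2 slides. It read -1.77, -1.62 and -1.01 in Mx+tumor, against -2.31, -0.54 and -0.67 in Mx-tumor, and -2.04, -1.36 and -1.13 in Mx+liver, against -2.31, -0.53 and -0.60 in Mx-liver. On slide 2 both Mx+ groups were below both Mx- groups, with a log2 difference of -0.69 ± 0.16 over both tissues (unadjusted p = 0.0045, adjusted p = 0.0802), while on slide 1 the difference was 0.40. Its second probe, well above background on all 12 arrays, gave -0.57 in tumor and -0.59 in liver over both slides. That probe was lower in Mx+ on slide 1 too. It read -1.77 there in Mx+tumor, against -1.45 in Mx-tumor, and -1.34 in Mx+liver, against -1.28 in Mx-liver. The levels of Chek2, the kinase downstream of Atm whose promoter word is printed above, were -2.49, -4.42 and -4.15 in Mx+tumor, against -3.11, -3.09 and -3.44 in Mx-tumor, and -2.55, -4.41 and -4.07 in Mx+liver, against -2.31, -3.49 and -3.65 in Mx-liver. On slide 2 the 4 Mx+ arrays were the 4 lowest, with a log2 difference of -0.85 ± 0.14 (unadjusted p = 9.49e-04, adjusted p = 0.0519). On slide 1 the mean difference was 0.19, and with the unsure arrays exchanged the difference over both slides was -0.69 ± 0.17 (unadjusted p = 0.00213, adjusted p = 0.143). H2afx, which encodes H2AX, and Parp1, which marks breaks with poly(ADP-ribose), differed by 0.07 (-0.21 to 0.36) and -0.11 (-0.38 to 0.15) over both tissues and both slides.

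All 5 end joining genes had a lower mean in Mx+ than in Mx- in both tissues, with median differences of -0.27 in tumor and -0.31 in liver. Xrcc4, the scaffold that holds ligase IV, read -0.53, -0.66 and -0.42 in Mx+tumor, against 0.22, 0.24 and 0.04 in Mx-tumor, and 0.45, -0.43 and -0.56 in Mx+liver, against 0.74, 0.20 and 0.11 in Mx-liver. In tumor every Mx+tumor array was below every Mx-tumor array, and in liver Mx+liver replicate 1, of unsure identity, was above both slide 2 arrays of Mx-liver. The log2 difference was -0.70 ± 0.22 in tumor (unadjusted p = 0.00987, adjusted p = 0.577, limma) and -0.53 ± 0.22 in liver (unadjusted p = 0.0373, adjusted p = 0.417). In liver it was -0.40 without Mx+liver replicate 3 (unadjusted p = 0.142). Exchange of the 2 unsure arrays gave -0.78 ± 0.19 and -0.61 ± 0.19.

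Xrcc5 encodes Ku80, which with Ku70 binds broken ends first. Its levels were 1.75, 1.45 and 1.66 in Mx+tumor, against 1.56, 2.04 and 2.07 in Mx-tumor, and 1.46, 1.46 and 1.52 in Mx+liver, against 2.06, 2.01 and 2.0 in Mx-liver. The 3 Mx+liver arrays lay close together and all below the Mx-liver arrays, and in tumor Mx-tumor replicate 1 lay among the Mx+tumor arrays. The log2 difference was -0.54 ± 0.18 in liver (unadjusted p = 0.0118, adjusted p = 0.416, limma) and -0.27 ± 0.18 in tumor (unadjusted p = 0.152, adjusted p = 0.728). With normexp background the liver difference was -0.35 (unadjusted p = 0.207). On slide 2 the tissues gave -0.50 in tumor and -0.52 in liver.

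For Xrcc6, which encodes Ku70, the levels were 2.48, 1.41 and 2.0 in Mx+tumor, against 3.30, 1.97 and 2.09 in Mx-tumor, and 3.05, 1.88 and 2.04 in Mx+liver, against 3.81, 1.99 and 2.04 in Mx-liver. The groups overlapped, and slide 1 arrays were higher than slide 2 arrays in each group. The difference over both tissues was -0.39 ± 0.17 (unadjusted p = 0.0435, adjusted p = 0.321), with -0.79 on slide 1 and -0.19 on slide 2. Prkdc, the catalytic subunit of DNA-PK, differed by -0.28 ± 0.15 and Lig4, the ligase that seals the ends, by -0.24 ± 0.15 over both tissues, neither past an unadjusted p of 0.05 with all arrays.

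**Figure D3:**
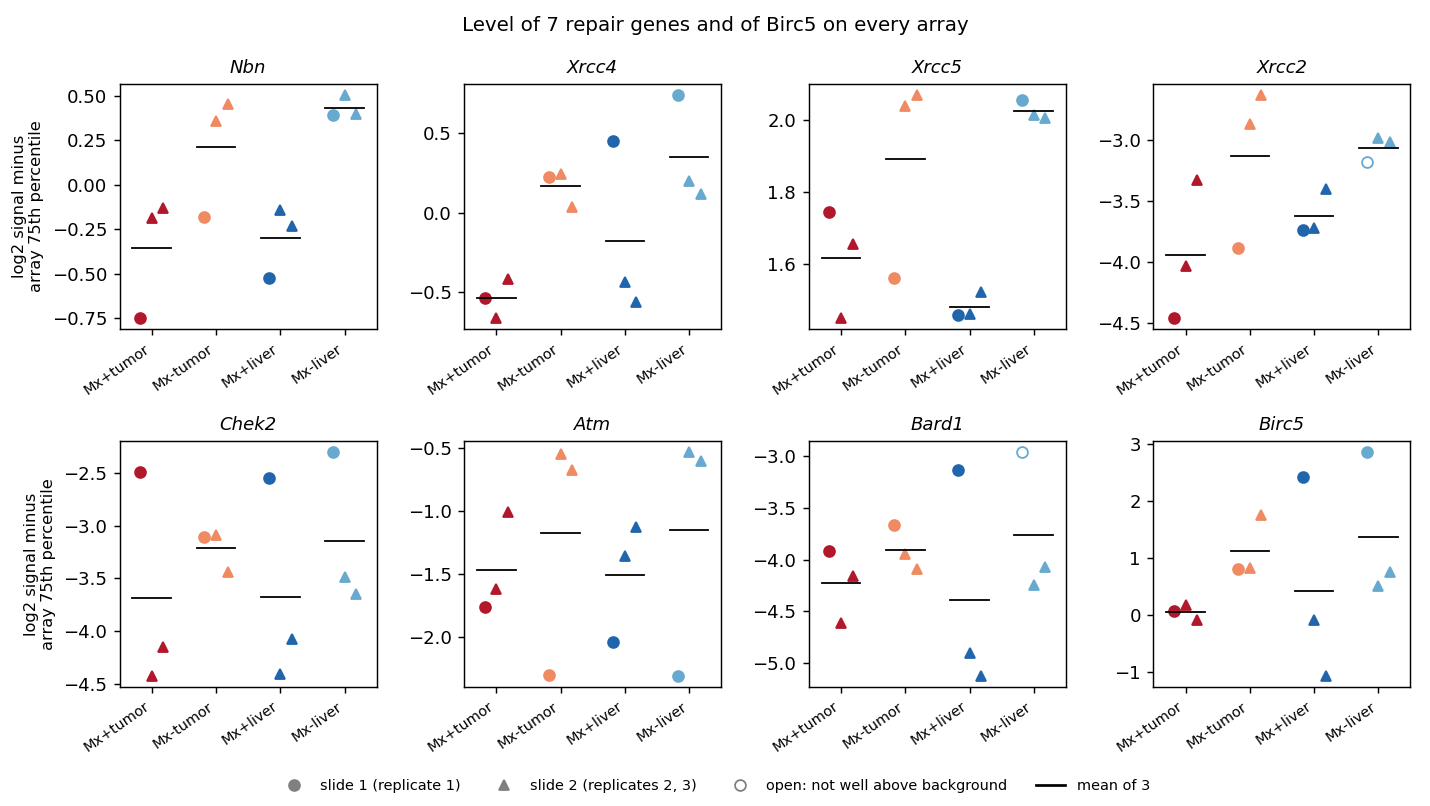
Level of 7 repair genes and of Birc5 on each of the 12 arrays (y axis, log2 processed signal minus the 75th percentile of the array) by group, with circles for slide 1, triangles for slide 2, open symbols for spots not well above background and a line at the mean of 3. On slide 2 the Mx+ triangles lie below the Mx- triangles in each tissue for all 8 genes, while the slide 1 circles have the opposite order for Atm in both tissues and for Chek2 and Xrcc5 in tumor.

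Of the 9 recombination genes 7 had a lower mean in Mx+ in each tissue, with median differences of -0.26 in tumor and -0.17 in liver. Xrcc2, which acts in strand exchange during recombination, was a dim probe and read -4.46, -4.03 and -3.33 in Mx+tumor, against -3.89, -2.87 and -2.63 in Mx-tumor, and -3.74, -3.72 and -3.41 in Mx+liver, against -3.18, -2.99 and -3.02 in Mx-liver. Mx+liver and Mx-liver did not overlap, although Mx-liver replicate 1 was not well above background, and in tumor Mx-tumor replicate 1 lay within the Mx+tumor range. The log2 difference was -0.81 ± 0.26 in tumor (unadjusted p = 0.0123, adjusted p = 0.58, limma) and -0.56 ± 0.26 in liver (unadjusted p = 0.0621, adjusted p = 0.427). Over both tissues it was -0.56 on slide 1 and -0.75 on slide 2.

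Bard1, the partner that Brca1 needs as a ubiquitin ligase, was also dim, with -3.92, -4.61 and -4.16 in Mx+tumor, against -3.67, -3.95 and -4.10 in Mx-tumor, and -3.14, -4.90 and -5.12 in Mx+liver, against -2.97, -4.24 and -4.07 in Mx-liver. The slide 2 arrays of Mx+liver were the lowest of all, and the difference on slide 2 was -0.85 ± 0.19 in liver (unadjusted p = 0.00425, adjusted p = 0.297) and -0.36 ± 0.19 in tumor. With the unsure arrays exchanged, the liver difference over all arrays was -0.80 ± 0.22 (unadjusted p = 0.00432, adjusted p = 0.515), against -0.63 ± 0.31 with the scanner files as recorded. The values of Bard1, Brca2, Atm, Chek2, Blm and Fancd2 are given in full because of what they showed, outside the naming rule. Brca2, a mediator of recombination that Palb2 brings to breaks, read -0.27, -1.66 and -0.62 in Mx+tumor, against 0.29, -0.83 and -0.78 in Mx-tumor, and 0.26, -1.10 and -0.95 in Mx+liver, against 0.80, -0.64 and -0.73 in Mx-liver. Its difference over both tissues was -0.41 ± 0.18 (unadjusted p = 0.0479, adjusted p = 0.33), and the lowest value was that of Mx+tumor replicate 2.

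Rad51ap1, which aids strand pairing in recombination, read -2.34, -3.05 and -3.25 in Mx+tumor, against -2.36, -2.72 and -2.97 in Mx-tumor, and -2.01, -3.80 and -3.95 in Mx+liver, against -2.08, -3.10 and -3.12 in Mx-liver. On slide 2 the 2 Mx+liver arrays were lowest, below Mx-liver by 0.77 ± 0.15 (unadjusted p = 0.002, adjusted p = 0.27), and Mx+tumor was below Mx-tumor by 0.31 ± 0.15. On slide 1 the mean genotype difference was 0.05. Brca1 itself was dim and variable, with -3.92, -3.70 and -4.23 in Mx+tumor, against -4.35, -3.73 and -2.45 in Mx-tumor, and -3.40, -4.29 and -4.34 in Mx+liver, against -4.79, -3.51 and -4.78 in Mx-liver. Its genotype difference was 0.91 on slide 1 and -0.52 on slide 2, and its 95% interval over both slides was -0.85 to 0.76, the widest of the 31. Palb2, the link between Brca1 and Brca2, differed by 0.05 (-0.23 to 0.34), Rad52 by -0.22, Xrcc3 by -0.19 and the translocase gene Rad54l by 0.27, none past an unadjusted p of 0.05.

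Exo1, a nuclease that resects ends, was lower in Mx+liver than in Mx-liver on slide 2 by 0.64 ± 0.14 (unadjusted p = 0.00449, adjusted p = 0.298), with -0.17 in tumor and 0.00 on slide 1 over both tissues. The helicase gene Blm differed by -0.20 (-0.75 to 0.35) over both tissues. In the Fanconi group, Fanca, of the core complex, differed by 0.20 (-0.18 to 0.59) and Fanci, which the core complex ubiquitinates, by 0.01 (-0.34 to 0.37). Fancd2, the partner of Fanci, did not pass the filter, since the replicate 1 array of no group was well above background. Its levels were -6.67, -5.33 and -1.94 in Mx+tumor, against -7.05, -4.48 and -3.28 in Mx-tumor, and -5.67, -5.18 and -3.98 in Mx+liver, against -5.03, -4.40 and -4.43 in Mx-liver. The highest was that of Mx+tumor replicate 3, and the groups overlapped in both tissues. On slide 2, where every spot of it was well above background, no test included it, since the filter asks for all 3 arrays of a group.

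The fork kinases had differences near 0 on slide 2. Atr differed there by 0.06 (-0.14 to 0.27) and its effector Chek1 by -0.05 (-0.37 to 0.27), with -0.62 and 0.77 on slide 1. The second Atr probe gave 0.13 over both tissues and both slides, where the probe used gave -0.16. Of the genes of replication-linked synthesis and mismatch recognition, Pold1, the catalytic subunit of polymerase delta, read -1.67, -0.46 and -0.78 in Mx+tumor, against -1.27, -1.09 and -1.35 in Mx-tumor, and -1.13, -0.81 and -1.34 in Mx+liver, against -0.97, -0.99 and -1.23 in Mx-liver. On slide 2 it was the 1 repair gene higher in Mx+tumor than in Mx-tumor at an unadjusted p below 0.05, by 0.61 ± 0.23 (unadjusted p = 0.0401, adjusted p = 0.243), where 10.2% of all genes were higher at that level, and on slide 1 the tumor difference was -0.40. Msh6, a mismatch sensor, was lower in all 4 Mx+ arrays of slide 2 by a small step of 0.23 ± 0.10 (unadjusted p = 0.0661, adjusted p = 0.234). Lig1, the ligase of Okazaki fragments, and Rad18, the ubiquitin ligase of damage bypass, differed by -0.05 (-0.41 to 0.30) and 0.11 (-0.26 to 0.48).

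**Figure D4:**
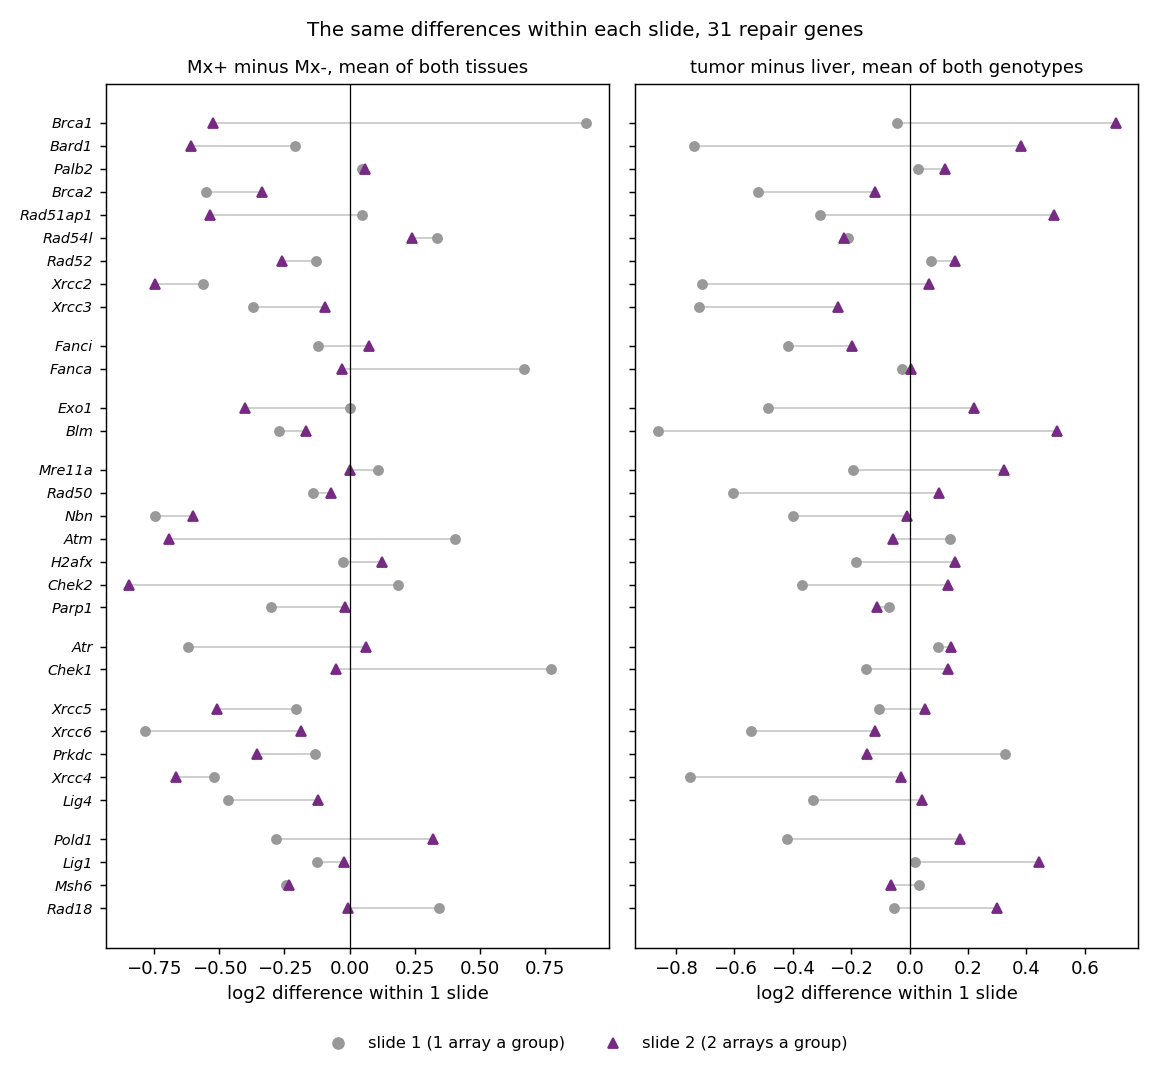
Log2 difference within slide 1 (grey circles, 1 array a group) and slide 2 (purple triangles, 2 arrays a group) for 31 repair genes, between Mx+ and Mx- over both tissues (left) and between tumor and liver over both genotypes (right), with the arrays as recorded. Nbn, Xrcc2 and Xrcc4 lie left of 0 on both slides in the left panel, while Brca1, Atm, Chek2 and Chek1 change side, and in the right panel Bard1, Rad51ap1 and Blm are left of 0 on slide 1 and right of it on slide 2.

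The 16 members whose transcripts are commonly tied to the cell cycle were set apart from the other 16. Among the 15 of the first kind that passed the filter, 8 were lower in Mx+tumor than in Mx-tumor and 9 lower in Mx+liver than in Mx-liver, with medians of -0.09 and -0.03. Among the other 16, 15 were lower in each tissue, with a median of -0.27 in each. With the 2 unsure arrays exchanged, 12 and 11 of the 15 were lower in tumor and liver, with medians of -0.10 and -0.08, and 14 and 16 of the other 16, with medians of -0.23 and -0.24. Which genes the split holds was set with results of these data known, and the difference between the 2 sets was not tested. The 27 proliferation genes tested had a median of -0.19 in tumor and -0.45 in liver over all arrays, and -0.43 and -0.76 on slide 2. On slide 1 their median was 0.21 in tumor and -0.13 in liver, and the mean level was -0.65 in Mx+tumor, against -1.13 in Mx-tumor, and -0.62 in Mx+liver, against -0.36 in Mx-liver. The mean level of the 28 proliferation genes on slide 2 was -1.41 and -1.12 in Mx+tumor, against -0.92 and -0.64 in Mx-tumor, and -1.71 and -1.73 in Mx+liver, against -1.11 and -0.97 in Mx-liver. On slide 2 the mean of the proliferation genes and that of the hepatocyte markers were thus lower on each Mx+ array than on both Mx- arrays of the same tissue, as were the 7 repair genes named above. For the hepatocyte markers in tumor the step was small, with 5.250 in Mx+tumor replicate 3, against 5.259 in Mx-tumor replicate 2. T and NK cell markers (11 measured, 10 or 11 well above background on each array) averaged -1.33 to -0.11 in Mx+tumor, against -2.94 to -1.49 in Mx-tumor, and -2.06 to -0.05 in Mx+liver, against -2.26 to -0.61 in Mx-liver. Mx+liver replicate 1, at -0.05 the highest of the Mx+liver arrays, is 1 of the 2 unsure arrays. Macrophage and myeloid markers (12 measured, 11 or 12 well above background) averaged 1.99 to 2.59 in Mx+tumor, against 1.52 to 2.90 in Mx-tumor, and 1.95 to 2.53 in Mx+liver, against 2.19 to 3.01 in Mx-liver. B and plasma cell markers (8 measured, 4 to 8 well above background) averaged -3.41 to -2.93 in Mx+tumor, against -4.52 to -2.40 in Mx-tumor, and -3.05 to -2.65 in Mx+liver, against -3.68 to -2.53 in Mx-liver. Erythroid markers (8 measured, 6 to 8 well above background) averaged -1.02 to 0.26 in Mx+tumor, against -0.13 to 0.05 in Mx-tumor, and -1.58 to -0.08 in Mx+liver, against -0.12 to 0.88 in Mx-liver. Cholangiocyte markers (6 measured, 4 to 6 well above background) averaged -1.55 to -0.61 in Mx+tumor, against -1.24 to -0.36 in Mx-tumor, and -1.01 to -0.78 in Mx+liver, against -1.46 to -1.26 in Mx-liver, and stood apart in liver. The 12 stellate and endothelial markers, all well above background, averaged 0.73 to 1.18 in Mx+tumor, against 0.44 to 0.95 in Mx-tumor, and 0.24 to 1.23 in Mx+liver, against 0.85 to 1.19 in Mx-liver. The part of these lists in the repair gene differences was not tested.

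No repair gene passed the adjusted threshold between tumor and liver. None of the 31 reached an unadjusted p of 0.05 in Mx-tumor against Mx-liver, where 3.66% of all genes were higher and 2.43% lower, or in Mx+tumor against Mx+liver, where 1.75% were higher and 2.63% lower. The medians were -0.07 and 0.05, against 0.04 and -0.04 over all genes, and no repair gene's groups of 3 stood apart, against 4.63% of genes higher and 2.37% lower in wild type and 2.23% and 2.25% in deleted tissue. With the 2 unsure arrays exchanged, Brca1 reached that p in wild type (7.39% of all genes higher) and Rad51ap1 in deleted tissue (2.88% higher), both higher in tumor, and Brca1 and Chek1 stood apart and higher in Mx+tumor than in Mx+liver (3.04% of genes). With single arrays left out, at most 1 repair gene reached that p in wild type. It was higher in tumor, without Mx-tumor replicate 1 (2.64% of all genes higher) or Mx-liver replicate 2 (4.31%). In deleted tissue the direction changed with the array left out. There 3 were higher without Mx+liver replicate 1 (2.95% of all genes higher) and 3 lower without Mx+tumor replicate 3 (5.12% lower). Without any other single array at most 1 reached it. With wild-type survivin, Brca1 had the smallest p, with 0.85 ± 0.51 (unadjusted p = 0.124, adjusted p = 0.752, limma), and Lig1 and Fanci differed by 0.33 ± 0.23 and -0.31 ± 0.22. The Brca1 value ranged from 0.33 without Mx-tumor replicate 3 to 1.31 without Mx-tumor replicate 1 (unadjusted p = 0.0384), and was 1.17 with the 2 unsure arrays exchanged (unadjusted p = 0.0132). Lig1 read 0.55, 0.43 and 0.29 in Mx+tumor, against 1.19, 0.22 and 0.13 in Mx-tumor, and 1.04, -0.26 and -0.31 in Mx+liver, against 0.66, -0.17 and 0.05 in Mx-liver. Its highest values were those of slide 1, and the groups overlapped. Fanci read -1.05, -0.83 and -0.56 in Mx+tumor, against -0.51, -1.20 and -0.87 in Mx-tumor, and -0.22, -0.78 and -0.75 in Mx+liver, against -0.52, -0.66 and -0.49 in Mx-liver, with overlap between all groups. The other Fanci probe gave 0.20 for Mx-tumor against Mx-liver, the opposite direction. With survivin deleted, Xrcc4 had the smallest p, with -0.36 ± 0.22 (unadjusted p = 0.138, adjusted p = 0.904), and Palb2, at -4.14, -1.51 and -1.81 in Mx+tumor, against -4.23, -1.80 and -2.19 in Mx-tumor, and -4.21, -2.0 and -2.11 in Mx+liver, against -4.22, -1.67 and -2.01 in Mx-liver, differed by 0.29 ± 0.18. The Xrcc4 value ranged from -0.49 without Mx+tumor replicate 3 to -0.11 without Mx+liver replicate 1, and was -0.04 on slide 2. With the Palb2 probe used, slide 1 arrays were all at -4.14 or lower and slide 2 arrays all at -2.19 or higher, a step between slides that exceeded any step between groups. The second Palb2 probe had no such step, with -4.34 to -3.14 on slide 1 and -4.38 to -4.07 on slide 2, and differed by 0.02 between the deleted tissues.

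Over both genotypes and all arrays 0 of 31 had an unadjusted p below 0.05 between tumor and liver, where 3.33% of all genes were higher and 3.94% lower. On slide 2 alone 4 repair genes were higher in tumor than in liver over both genotypes at an unadjusted p below 0.05 and 0 were lower, where 7.3% of all genes were higher and no gene passed the adjusted threshold. They were Bard1 (0.38), Blm (0.51), Lig1 (0.44) and Rad51ap1 (0.49). Blm, at 1.32, 1.17 and 1.25 in Mx+tumor, against 1.51, 1.03 and 1.70 in Mx-tumor, and 2.10, 0.60 and 0.78 in Mx+liver, against 2.46, 0.77 and 0.97 in Mx-liver, and Lig1 had all 4 tumor arrays of slide 2 above all 4 liver arrays, where 3.24% of genes did. In survivin-deleted tissue 5 were higher on slide 2 (Lig1, Rad51ap1, Bard1, Exo1 and Rad18), where 5.29% of genes were higher, and with wild-type survivin 1 was lower (Fanci, -0.46), where 3.88% were lower. The other Fanci probe, well above background on all 12 arrays, had the opposite order there. It read -2.0 and -1.85 in the slide 2 arrays of Mx-tumor, against -2.85 and -2.40 in those of Mx-liver. On slide 1 the same differences over both genotypes were -0.74 for Bard1, -0.86 for Blm, 0.02 for Lig1 and -0.31 for Rad51ap1 with the arrays as recorded. With the 2 unsure arrays exchanged, which moves both between tissues and between genotypes, they were -0.21, -0.27, -0.13 and 0.05 for the same genes. These are the same numbers as the slide 1 genotype differences with the arrays as recorded, so they are not a separate result.

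The change by deletion was not shown to differ between tissues for any repair gene. No gene passed the adjusted threshold for the difference of the 2 effects in limma, and 0 of 31 repair genes had an unadjusted p below 0.05, against 0.845% of genes higher and 2.43% lower. The smallest p was that of Palb2, whose deletion difference was 0.25 in tumor and -0.14 in liver, a gap of 0.40 ± 0.26 (unadjusted p = 0.155, adjusted p = 0.913). The second Palb2 probe gave the opposite order, 0.03 in tumor and 0.29 in liver, a gap of -0.26. For Nbn the gap was 0.17 (-0.35 to 0.69), for Xrcc4 -0.17 (-0.87 to 0.52) and for Xrcc5 0.27 (-0.29 to 0.83).

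Of 61 other repair pathway genes tested, 6 were lower and 2 higher in Mx+tumor than in Mx-tumor at an unadjusted p below 0.05, and 4 were lower and 1 higher in Mx+liver than in Mx-liver, with medians of -0.02 and -0.10. Of all genes 4.44% were lower and 3.44% higher in tumor at that level, and 3.46% lower and 8.37% higher in liver. No gene of this list passed the adjusted threshold. Hus1, of the checkpoint clamp, was lower in Mx+tumor by 0.91 ± 0.25 (unadjusted p = 0.00539, adjusted p = 0.569, limma). In liver the smallest p-values were those of Parp2 (-0.58 ± 0.18) and the polymerase of alternative end joining, Polq (1.07 ± 0.37). Of the proliferation genes, Ccnb1, the mitotic cyclin B1, differed by -1.23 ± 0.54 in tumor, and Rrm2, a subunit of ribonucleotide reductase, by -0.87 ± 0.23 and Cdc20, the activator of the anaphase promoting complex, by -0.85 ± 0.32 in liver, and none passed the adjusted test. Of 18 p53 target genes, 3 were higher and 0 lower in Mx+tumor at an unadjusted p below 0.05, and 2 were higher and 2 lower in Mx+liver, against 3.44% of all genes higher and 4.44% lower in tumor and 8.37% higher and 3.46% lower in liver. Their median difference was 0.18 in tumor and 0.22 in liver, with 13 and 12 of the 18 higher. Phlda3, an inhibitor of Akt, differed by 1.00 ± 0.29 and Mdm2, the ubiquitin ligase of p53, by 0.80 ± 0.29 in tumor, and the stress kinase Plk2 by -0.56 ± 0.18 and the p53 effector Perp by -0.56 ± 0.20 in liver, again with no adjusted call.

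The same lists held no gene past the adjusted threshold between tissues either. In Mx-tumor against Mx-liver the smallest p-values were those of the nuclease genes Eme1 (0.55 ± 0.23) and Dna2 (2.0 ± 1.02), of Mcm3 (-0.28 ± 0.16), a subunit of the replicative helicase, and Cdk1 (0.31 ± 0.18), the mitotic kinase, and of the p53 targets Ccng1 (-0.46 ± 0.23) and Plk2 (-0.32 ± 0.18). In Mx+tumor against Mx+liver they included those of Hus1 (-0.49 ± 0.25), Aurkb (2.13 ± 0.80), the kinase that survivin holds at centromeres, and Rrm2 (0.56 ± 0.23), and Plk2 (0.45 ± 0.18) and Sesn2 (-0.27 ± 0.16). For the gap between the 2 deletion effects they were those of Hus1 (-0.87 ± 0.36) and the recombination gene Rad51c (1.04 ± 0.51), Aurkb (2.74 ± 1.13) and Mcm3 (0.53 ± 0.23), and Plk2 (0.77 ± 0.25) and Sesn2 (-0.53 ± 0.23). Mcm3 was also second among the proliferation genes for deletion in tumor, with 0.29 ± 0.16.

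Some genes had probes that disagreed. The Fanci probe used, of highest mean, gave a deletion difference of -0.03 in liver, while the other Fanci probe read -0.96, -2.77 and -2.30 in Mx+tumor, against -1.05, -2.0 and -1.85 in Mx-tumor, and -0.73, -3.22 and -3.43 in Mx+liver, against -0.26, -2.85 and -2.40 in Mx-liver, and gave -0.62. For Rad18 the probe used gave 0.12 in liver, and the other read -3.56, -2.87 and -3.67 in Mx+tumor, against -3.88, -2.53 and -2.44 in Mx-tumor, and -3.43, -3.76 and -3.85 in Mx+liver, against -3.74, -2.50 and -2.33 in Mx-liver, with -0.82 in liver. On slide 2 this second Rad18 probe was lower in all Mx+ arrays than in all Mx- arrays. The Atm probes disagreed in direction on slide 1, as given above. Nbn, Xrcc4, Xrcc5, Xrcc6 and Chek2 had 1 probe each, so their differences have no second probe to set beside them. The second Xrcc2 probe was well above background on no array.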

How the data were processed

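RNA of 12 samples was labelled with Cy3 and read on single-colour Agilent arrays, and per the submitters' processing notes the scans were made into tables with Agilent Feature Extraction 10.7. Per the file headers, the deposited scanner files hold the processed signal intensity of each spot, already background-subtracted, and the authors' value table holds log2 values of the same arrays. From the processed signals of the 59305 non-control spots log2 was taken, and unflagged replicate spots were averaged per probe. The 75th percentile of each array over its 55681 probes was then subtracted. A gene with several probes was represented by its brightest one. A probe was kept if some group had it well above background on each of its 3 arrays, which left 26505 genes. limma 3.58.1 (R 4.3.3) was fitted to 4 group means with the slide as a fixed block (7 residual degrees of freedom, 4 on slide 2 alone), and p-values were adjusted by Benjamini-Hochberg over all genes tested, with a threshold of 0.05. The tests were tried on simulated data with known changes. No depth exists for arrays, so the number of arrays limits the precision.

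Genes were taken by name. Every-array values are given for the 4 members of smallest p in each comparison, for members whose groups of 3 did not overlap, and for Birc5. From each of the other lists the 2 genes of smallest p are named. A result that this rule would name is not reported here. Members and lists were chosen with earlier results of these data known. The comparisons over both tissues, the average of tissues and the additive tissue term were added after the values were seen. Replicate numbers were tested for pairing: all 18 pairs of same-numbered arrays had deviations that correlated at 0.279 to 0.737, as number 1 is slide 1, while on slide 2 the 6 pairs gave -0.0908 to 0.284, with 2 over 0.1. In all 14 other settings were tried, for background, normalization, filter, probe choice, variance model, block, input table, array labels and left-out arrays. Promoters are those of RefSeq on GRCm38.p6, searched for short words on both strands, and no genome of the mm9 build was used here.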

Additional observations from a re-analysis of the deposited data

How the results depend on the processing

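Under the 14 other settings, with each of the 12 arrays left out in turn as 1 of them, no repair gene passed the adjusted threshold in either tissue, in either comparison of tumor with liver or in the gap between the deletion effects, which was not fitted with only the groups compared. For Mx+ against Mx- over both tissues the count was 2 on slide 2 only and 4 on slide 2 with tissue as a term (chosen after seeing the data), and 0 under the others. The median difference ranged from -0.25 to -0.03 for deletion in tumor, -0.24 to -0.09 in liver, -0.26 to -0.12 over both, -0.12 to 0.04 for Mx-tumor against Mx-liver, -0.05 to 0.15 for Mx+tumor against Mx+liver and -0.07 to 0.17 for the gap. With the replicate block in place of the slide block, the count was 0 in each comparison. Birc5 then differed by -1.08 in tumor (unadjusted p = 0.173, limma) and -0.96 in liver (unadjusted p = 0.221, limma). That block joins arrays of both genotypes, so it does not test pairing by animal. With tumor and liver of 1 genotype and number averaged, 0 genes passed on slide 2 for Mx+ against Mx-, against 435 without averaging. Birc5 had an unadjusted p below 0.05 in tumor and liver on slide 2 only (-1.25 and -1.22), with the 2 arrays exchanged (-1.62 and -1.50), without both of them (-1.61 and -1.59), in the deposited value table (-1.62 and -1.51) and with only the groups compared (-1.08 and -0.96). With each array left out in turn, it ranged from -1.82 (without Mx-tumor replicate 1) to -0.53 in tumor and from -1.76 (without Mx+liver replicate 1) to -0.38 in liver. With normexp background the difference of Xrcc5 was -0.35 in liver, where the call at an unadjusted p below 0.05 was lost (unadjusted p = 0.207 in limma), and -0.21 over both tissues. The cause of these changes was not tested. Single dim probes, such as those of Brca1, Xrcc2, Bard1 and Fancd2, are limited by signal over background, chiefly on slide 1.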
